A study of Homo sapiens with 12 samples.

Results

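The COPII coat is the protein shell that buds cargo-laden vesicles from the endoplasmic reticulum (ER) toward the Golgi, and SEC23A encodes 1 of its inner subunits. The transcripts of 10 of its genes, called the coat genes here, were followed in C4-2 cells after knockdown of choline kinase alpha (CHKA). These were SEC23A, SEC23B, SEC24A, SEC24B, SEC24C, SEC24D, SEC13, SEC31A, SAR1A and SAR1B, listed by symbol and matched to 10 of the 54127 gene identifiers counted. The coat was chosen by the steep fall of SEC23A read counts in these same samples, so that fall is given as a description with no test. The other 9 genes belong to the list by function and were tested.

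C4-2 is a prostate cancer cell line derived from LNCaP. Cells kept in RPMI with 10% FBS were reverse transfected with 50 nM of an siRNA pool, directed either against CHKA (siCHKA, 6 samples) or at no target (siNT, 6 samples), and polyadenylated RNA was sequenced. CHKA phosphorylates choline at the entry to phosphatidylcholine synthesis, and the study asked how its loss alters the transcriptome of these cells. Each group rests on 1 cell line and 1 pool, so effects of single siRNAs cannot be told apart. The labels state that the RNA came from flow-sorted cells, whereas the RNA sequencing section of the study's methods names no sorting. The labels number the samples as replicates without naming separate cultures. The study's figure legends speak of biological triplicates where knockdown genes were selected, and of 6 biological replicates in a plot of single genes. The tests here treat the 6 samples of a group as separate units, and p-values therefore measure only the spread between these samples. Fewer independent units may stand behind them.

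As background, COPII assembly begins when the small GTPase SAR1 is loaded with GTP at the ER membrane. SAR1 recruits the inner coat, a SEC23-SEC24 heterodimer in which SEC24 binds cargo and SEC23 stimulates the GTPase activity of SAR1. SEC13 and SEC31 then polymerize into the outer cage that bends the membrane. Vertebrate cells carry paralogues of most subunits, and mutations of SEC23A, SEC23B, SEC24D and SAR1B cause human disorders of skeletal development, red cell maturation, bone formation and fat absorption, respectively.

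Between 10685184 and 24246055 reads per sample fell on genes, and every coat gene was covered by 519 to 8261 reads in every sample. A count of 3 reads, taken as the floor for counting error only, corresponds to 0.124 to 0.281 in counts-per-million (CPM) units. CHKA itself, the targeted gene, stood at 2.75 ± 1.03 CPM (SD, n = 6) in siCHKA and 40.7 ± 2.55 CPM in siNT. All 9 luminal prostate markers reported here were expressed, KLK3 among them. Their summed level was 4343 to 5781 CPM in siCHKA and 4767 to 6249 CPM in siNT, with 5 of the 9 lower and 4 higher. Of 11 markers of basal, leukocyte, endothelial, stromal and neuroendocrine cells, 5 passed the expression filter and all 5 were higher in siCHKA. Over all tested genes 30.1% were lower and 32.1% higher, and no change of cell types is read from these marker counts. The list of 11 summed to 33.3 to 43.7 CPM in siCHKA and 15.7 to 24 CPM in siNT, most of it from COL1A1, which encodes a collagen chain. Apart from COL1A1, none of the 5 averaged more than 4.88 CPM in either group. KRT5, TP63, PTPRC, COL1A2 and CHGA reached at most 4 reads in any sample, and PECAM1 had no matching identifier. The share of uniquely aligned reads outside genes was also higher in siCHKA (6.7% to 8.54%, against 5.49% to 6.63%), and its part in the values below was not tested. In bulk RNA, fewer cells of a type and less RNA per cell cannot be told apart.

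The samples of each group fell into sets that the labels do not name. Over 9629 genes, siCHKA replicates 1, 3 and 5 differed from each other by a root mean square of 0.13 to 0.14 in log2 CPM, and replicates 2, 4 and 6 by 0.10 to 0.12. Between these sets the difference was 0.21 to 0.29. Replicates 1, 2 and 3 of siNT stood less clearly apart from replicates 4, 5 and 6, at 0.19 to 0.25 between the sets and 0.12 to 0.19 within them. Any siCHKA sample differed from any siNT sample by 0.50 to 0.58. Comparisons restricted to 1 of these sets are therefore given beside each coat gene whose call they change.

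SEC23A (ENSG00000100934) lies on the minus strand of chromosome 14, at chr14:39031919-39109646 in GRCh38. Its level ran from 262 to 286 CPM in siNT, with a median of 276 CPM. In siCHKA the lowest sample was at 40.1 CPM, the median at 41.1 CPM and the highest at 45.6 CPM. The 2 ranges were far apart, and the least affected siCHKA sample remained well below every siNT sample. The means were 41.7 ± 1.98 and 275 ± 10.3 CPM (SD, n = 6 per group), a log2 fold change of -2.72 (SE 0.05), which left 15.2% of the siNT level. Among 22 alternative fits and sample sets the value ran from -2.77 to -2.68.

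Of the 9629 genes that averaged 10 CPM or more, SEC23A held place 5 from the lowest log2 fold change. Directly above it stood CHKA, IGF1, which encodes a growth factor, and SUV39H1, a histone H3 lysine methyltransferase, at log2 fold changes of -3.88, -3.71 and -2.73. Next below it were RRM2, a ribonucleotide reductase subunit, C11orf24 and KCTD20, at -2.62, -2.60 and -2.46. These values only place SEC23A in an order that its selection already used.

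The nearest tested coding genes around SEC23A on chromosome 14 did not show a change of that size. On the side of its 3′ end, FOXA1, a pioneer transcription factor of luminal cells, had a log2 fold change of -0.18 (edgeR adjusted p = 0.00241), and TTC6 had 0.36 (edgeR adjusted p = 0.0337). On the side of its 5′ end, GEMIN2, a subunit of the complex that assembles spliceosomal ribonucleoproteins, had -0.16 (edgeR adjusted p = 0.143). TRAPPC6B, a subunit of a vesicle tether, had 0.01 (edgeR adjusted p = 0.92). The neighbours are not equally close, since TTC6 ends at base 38041442 and FOXA1 at base 37596059, whereas GEMIN2 starts at base 39114285. The antisense gene SEC23A-AS1 shares 324 exonic bases, or 3.74% of the exon length of SEC23A, and had 0 reads in each sample. Whether the counting used strand is not stated, so reads from the 2 strands of that stretch cannot be told apart.

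The 3′ UTR of SEC23A is shown because it alone, among the 10 coat genes, holds the word GCCAGAT, which earlier results of these data had tied to lower levels. In the MANE Select transcript the word begins at base 1068 of a 3′ UTR of 1320 bases. The CHKA transcript holds it as well, at base 874 of 2714 and thus before its 3′ UTR, which starts at base 1586. Capitals mark the word in each stretch, written 5′ to 3′ from GRCh38 with the letters of the transcript given as DNA:
SEC23A 3′ UTR: acattgataaaGCCAGATatgttttgaca
CHKA transcript: gaattaagtttGCCAGATatttctgcaga

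These stretches share 9 contiguous bases, GCCAGATAT. Over 12222 tested genes with a 3′ UTR, 1166 held GCCAGAT, which is 9.54%. Of these, 566 were lower and 248 higher, so that 48.5% were lower against 32.1% of the genes without the word. Their median log2 fold change was -0.18, against 0.02 without the word. The longer run GCCAGATAT stood in 57 3′ UTRs, of which 33 were lower and 15 higher, with a median of -0.31. SEC23A is itself 1 of these genes and its fall belongs to the same contrast. The word was taken up from earlier results of these same data, and the longer run was read from SEC23A and CHKA. These shares and medians are therefore descriptions and test nothing, and they were not matched for 3′ UTR length. The sequences of the siRNAs are not given in the sources used here, and the part of any match between the pool and SEC23A was not tested. Another word counted in the same way, TGCCCTT, stood in 17.3% of the 3′ UTRs and in none of those of the coat genes. The CHKA transcript holds TGCCCTT as well, in 3 copies, of which 1 lies in its 3′ UTR. Of the genes with TGCCCTT in the 3′ UTR, 43.2% were lower against 31.6% without it, with medians of -0.11 and 0.02.

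SEC23B, the paralogue that can take the place of SEC23A in the inner coat, differed far less. It lay between 213 and 236 CPM in siNT (median 226) and between 194 and 211 CPM in siCHKA (median 200). The groups did not overlap, although the highest siCHKA sample came within a few CPM of the lowest siNT sample. SEC23B fell by 0.16 on the log2 scale (SE 0.04, edgeR adjusted p = 0.00514), to 89.5% of its siNT level. The call was lost in siCHKA replicates 1, 3 and 5 alone, at -0.13 (edgeR adjusted p = 0.0657), and with 1 count file per sample, at -0.10 (edgeR adjusted p = 0.123). In no siCHKA library did SEC23B exceed its siNT range. Within a library the ratio of SEC23A to SEC23B reads was 1.14 to 1.33 in siNT and 0.197 to 0.216 in siCHKA.

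**Figure D1:**
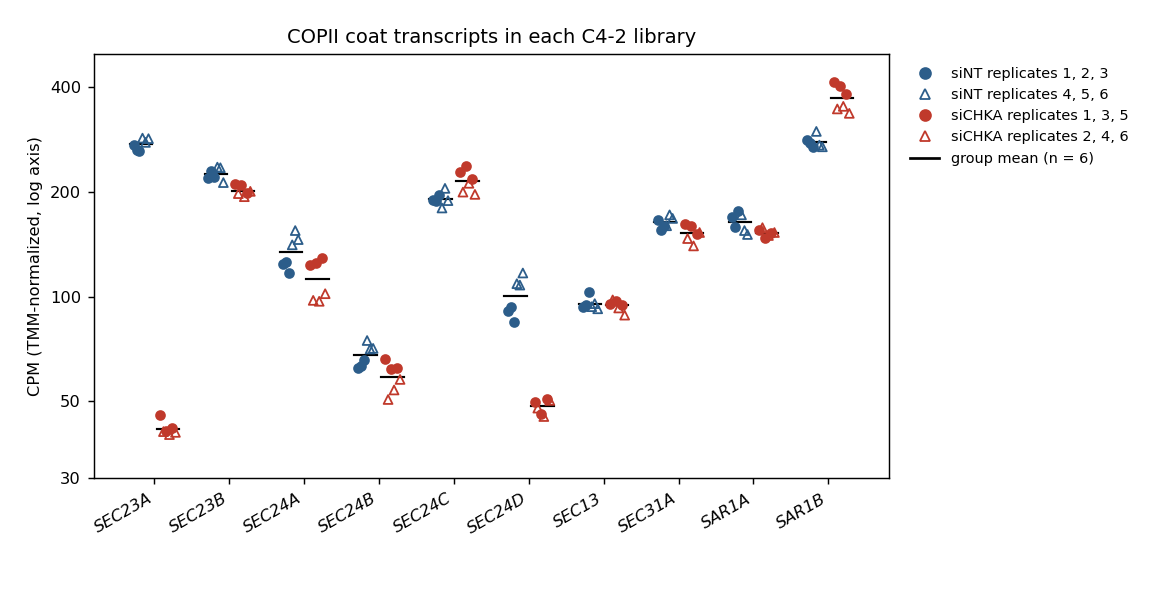
Normalized CPM of the 10 coat genes in each library on a log axis, with siNT in blue, siCHKA in red, symbols for the sets of libraries that stood apart, and black lines for the mean of 6 samples. SEC23A, SEC23B and SEC24D lie below, and SAR1B above, every siNT sample of the same gene, while SEC24A and SEC24B spread by set within each group.

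Of the SEC24 cargo adaptors, SEC24D changed most. Its level was 84.8 to 117 CPM in siNT (median 101) and 45.2 to 50.8 CPM in siCHKA (median 48.8). Every siCHKA sample was below every siNT sample. SEC24D fell to 48.1% of its siNT level (48.3 ± 2.32 against 101 ± 12.5 CPM, SD, n = 6 per group), a log2 fold change of -1.06 with an SE of 0.07 (edgeR adjusted p = 1.39e-09). The siNT sets differed here, with means of 89.8 CPM in replicates 1, 2 and 3 and 111 CPM in replicates 4, 5 and 6, and the fold change against each was -0.91 and -1.21. Of all tested genes, 4.08% had a lower log2 fold change than SEC24D.

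SEC24A and SEC24B, which form the other branch of the SEC24 family, were lower on average but overlapped between the groups. SEC24A ran from 117 to 155 CPM in siNT (median 134) and from 97 to 129 CPM in siCHKA (median 112). SEC24A fell by 0.27 on the log2 scale (SE 0.09, edgeR adjusted p = 0.0135). The means of the siCHKA sets were 126 CPM (replicates 1, 3 and 5) and 99 CPM (replicates 2, 4 and 6), and those of the siNT sets were 122 CPM (replicates 1, 2 and 3) and 147 CPM (replicates 4, 5 and 6). The first siCHKA set and the first siNT set were thus alike in SEC24A. With siCHKA replicates 1, 3 and 5 alone the log2 fold change was -0.10 (edgeR adjusted p = 0.294), and with siNT replicates 1, 2 and 3 alone it was -0.14 (edgeR adjusted p = 0.25). The other sets gave -0.45 and -0.41, so the size of this fall depended on which libraries were compared.

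SEC24B followed the same pattern. It stood at 62.5 to 74.8 CPM in siNT (median 68.3) and at 50.6 to 66 CPM in siCHKA (median 59.9), with an overlap of the groups. Its log2 fold change was -0.21 (SE 0.07, edgeR adjusted p = 0.0117). It was -0.10 (edgeR adjusted p = 0.227) with siCHKA replicates 1, 3 and 5 alone, -0.13 (edgeR adjusted p = 0.177) with siNT replicates 1, 2 and 3 alone and -0.14 (edgeR adjusted p = 0.238) with 1 count file per sample.

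SEC24C, the closest relative of SEC24D, moved the other way. Its level was 180 to 205 CPM in siNT (median 190) and 197 to 237 CPM in siCHKA (median 215), and the groups overlapped. SEC24C rose by a log2 fold change of 0.17 (SE 0.05, edgeR adjusted p = 0.0121). With siCHKA replicates 2, 4 and 6 alone it was 0.08 (edgeR adjusted p = 0.224), and either siNT set alone gave 0.16 (edgeR adjusted p = 0.0608 and 0.0839). Without an expression filter it was 0.14 (edgeR adjusted p = 0.0882). The value shrank most in siCHKA replicates 2, 4 and 6, and the other settings changed the call more than the value.

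Ratios of paralogues within a library do not depend on how libraries are scaled. SEC24C reads outnumbered SEC24D reads 1.62- to 2.31-fold in siNT and 3.91- to 5.14-fold in siCHKA, with no overlap. The difference in log2 ratio was 1.22 (exact permutation test, two-sided, p = 0.00216, adjusted over 3 ratios p = 0.00325). The raw p is the smallest that 6 against 6 samples can give. The ratio of SEC24A to SEC24B was 1.78 to 2.19 in siNT and 1.77 to 2.07 in siCHKA, a log2 difference of -0.06 (exact permutation test, two-sided, p = 0.346, adjusted p = 0.346). These ranges overlapped almost entirely, in contrast to those of SEC24C and SEC24D.

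The outer coat genes on the list of 10 had levels that did not pass the test. SEC31B, the paralogue of SEC31A, was not on that list and is counted among the exit site factors below. It averaged only 0.926 CPM in siCHKA and 0.838 CPM in siNT (log2 fold change 0.14, edgeR adjusted p = 0.749). SEC13, which is also a nuclear pore subunit, stood at 92.3 to 103 CPM in siNT (median 94.2) and 88.5 to 97.9 CPM in siCHKA (median 94.8). Its log2 fold change was -0.02, with a 95% interval from -0.11 to 0.08 (edgeR adjusted p = 0.766). The interval leaves out a fall of the size seen for SEC24D. SEC31A, the partner of SEC13 in the cage, was at 156 to 172 CPM in siNT (median 163) and 140 to 162 CPM in siCHKA (median 152). Its log2 fold change was -0.10, with a 95% interval from -0.21 to -0.00 before adjustment (edgeR adjusted p = 0.0669). Without siCHKA replicate 1 it was -0.12 (edgeR adjusted p = 0.0381) and with siCHKA replicates 2, 4 and 6 alone -0.17 (edgeR adjusted p = 0.0127), so its call lay near the threshold. SEC31A shares 566 exonic bases, 6.09% of its exon length, with THAP9 and THAP9-AS1. THAP9-AS1, on the same strand, shares 482 bases and had 521 to 1313 reads in siCHKA and 791 to 1953 in siNT. The part of this overlap in the value of SEC31A was not tested.

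The SAR1 GTPases diverged. SAR1A was at 151 to 176 CPM in siNT (median 164) and 148 to 158 CPM in siCHKA (median 153), and the groups overlapped. Its log2 fold change was -0.10, with a 95% interval from -0.20 to 0.00 (edgeR adjusted p = 0.0888). Without siNT replicate 6 it was -0.12 (edgeR adjusted p = 0.0362), and with siNT replicates 1, 2 and 3 alone -0.15 (edgeR adjusted p = 0.0291).

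SAR1B, the paralogue required for the export of chylomicrons from enterocytes, was the coat gene that rose most. It lay at 270 to 299 CPM in siNT (median 275) and 337 to 416 CPM in siCHKA (median 368). All 6 siCHKA samples exceeded all 6 siNT samples. SAR1B rose to 134% of its siNT level (373 ± 32.6 against 279 ± 11.1 CPM, SD, n = 6 per group), a log2 fold change of 0.42 with an SE of 0.06 (edgeR adjusted p = 7.79e-06). The rise was 0.53 in siCHKA replicates 1, 3 and 5 and 0.31 in replicates 2, 4 and 6, both past the threshold. The log2 ratio of SAR1A to SAR1B was lower in siCHKA by a difference of -0.51 (two-sided exact permutation test, p = 0.00216, adjusted over 3 ratios p = 0.00325), from 0.559 to 0.651 reads of SAR1A per read of SAR1B in siNT to 0.365 to 0.456 in siCHKA.

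SAR1B and SEC24A are neighbours on chromosome 5 that start from opposite strands and overlap at their 5′ ends. SAR1B spans chr5:134601149-134649271 on the minus strand and SEC24A chr5:134648785-134727909 on the plus strand, in GRCh38. In GENCODE 44 they share 389 exonic bases, 3.6% of the exon length of SAR1B and 5.34% of that of SEC24A. Reads there are left out by a counter that ignores strand and assigned by one that uses it. The larger part of each gene does not overlap, and their log2 fold changes had opposite signs.

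**Figure D2:**
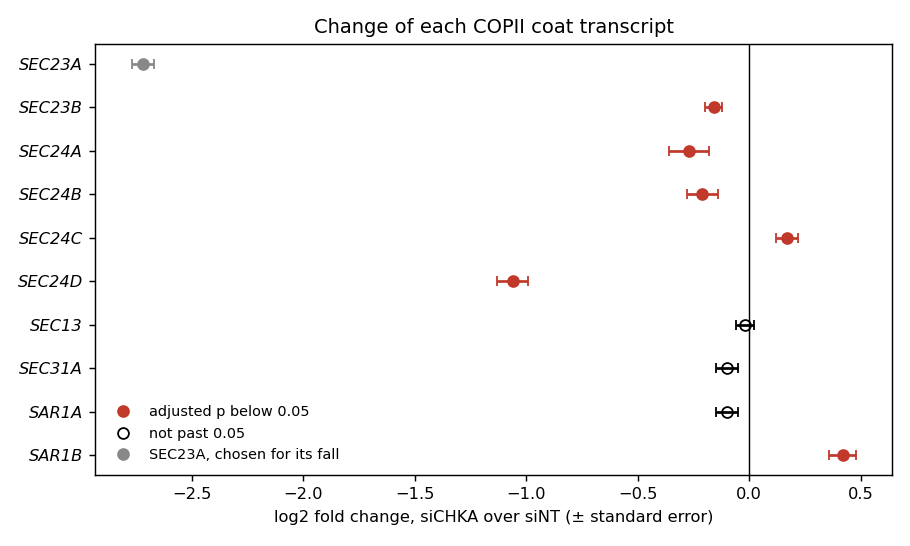
Log2 fold change of each coat gene, siCHKA over siNT, with its standard error from the edgeR fit of all 12 samples. SEC23A at -2.72 and SEC24D at -1.06 stand apart from the other 8 genes, which lie between -0.27 and 0.42.

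Counted together, 5 coat genes were lower (SEC23A, SEC23B, SEC24A, SEC24B and SEC24D), 2 were higher (SEC24C and SAR1B) and 3 did not pass an adjusted p of 0.05. Without SEC23A, which was chosen for its fall, 4 of the 9 other genes were lower. Over all 14501 tested genes, 30.1% were lower and 32.1% higher by the same rule, 62.2% in all, a background so wide that nothing is read from the count of coat genes called. The groups did not overlap, with siCHKA below, for SEC23A, SEC23B and SEC24D, and with siCHKA above for SAR1B. Over all tested genes the groups did not overlap for 40.6%, with 21.5% below and 19.1% above. A fall of at least 2-fold was rarer, at 4.51% of all tested genes, and among the 9 other coat genes only SEC24D met it. SEC23A met it too, but was chosen for its fall and is not set against that share. A rise of at least 2-fold was seen in 5.41% of all tested genes and in no coat gene, of which SAR1B came nearest at 1.34-fold. The median log2 fold change was -0.13 over the 10 coat genes and -0.10 without SEC23A, against 0.03 over all tested genes.

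Levels can be set side by side only per length. As CPM per kilobase of all annotated exons, the order in siNT was SEC23B (51.9 ± 2.14), SEC24C (35.8 ± 1.55), SEC23A (31.7 ± 1.19), SAR1B (25.8 ± 1.03), SAR1A (23.7 ± 1.49), SEC24A (18.5 ± 2.02), SEC13 (17.7 ± 0.717), SEC31A (17.6 ± 0.651), SEC24B (13.0 ± 0.944) and SEC24D (10.1 ± 1.26, SD, n = 6). The ranges of SAR1B and SAR1A overlapped, as did those of SEC24A and SEC13 and of SEC13 and SEC31A, while the other neighbours in this order were apart. In siCHKA, SEC23A was last at 4.82 ± 0.228, next to SEC24D at 4.87 ± 0.234. The order depended on the length used. Per kilobase of the longest coding transcript, SEC23A (65.2 CPM) and SEC23B (65.1 CPM) were almost equal at the top in siNT. SEC13 moved from place 7 to place 3, at 59.5 CPM.

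By the same measure the make-up of 3 families shifted. SEC23A supplied 37.9% of the SEC23 level in siNT and 9.39% in siCHKA by exon length, or 50.0% and 14.5% by the longest coding transcript. The summed SEC23 level went from 83.6 to 51.3 CPM per kilobase by exon length, or from 130 to 68.2 by the longest coding transcript. The summed SEC24 level was 77.5 and 71.8 CPM per kilobase, within which the share of SEC24D went from 13.1% to 6.82% and that of SEC24C from 46.3% to 56.1%. By the longest coding transcript these shares went from 24.8% to 13.8% and from 40.9% to 52.9%, and the summed level from 101 to 87.3. The summed SAR1 level was 49.5 and 56.7 CPM per kilobase, and SAR1B supplied 52.1% and 60.9% of it. By the longest coding transcript the sum was 70.1 and 82.9, and SAR1B supplied 61% and 69%. The SEC23 shares use SEC23A and are a description of its fall in another unit.

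The variation of SEC23A between samples of the same group was compared with that of other genes. Over the 12 samples, after subtraction of the group means, the genes whose log2 CPM was most like that of SEC23A were CD2AP, an adaptor of the actin cytoskeleton (Pearson r = 0.95), ITFG1 (0.95), PPM1A, a protein phosphatase (0.94), PRRC1 (0.94) and MATR3, a nuclear matrix protein (0.94). Within the coat r was 0.74 for SEC24B, 0.67 for SEC24A, 0.66 for SEC24D, 0.65 for SEC31A, 0.64 for SAR1B, 0.39 for SEC23B, 0.21 for SEC24C, -0.08 for SAR1A and -0.21 for SEC13. These points share their libraries, and SEC23A separated the sets of libraries in both groups (means of 42.9 and 40.6 CPM in siCHKA, and of 266 and 283 CPM in siNT). The correlations are descriptions and were not tested.

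The promoters were examined for TGACGTG, letters found in elements that factors of the CREB3 and ATF6 families bind. CREB3L2 is known to activate SEC23A in cartilage, which is why these windows are shown. The motif was picked after the sequences had been looked at. It was searched on both strands of RefSeq windows (GRCh38.p14) that run from 250 bases before to 50 bases after each start, which matched 9 of the 10 coat genes and left SEC24D without one. The windows of SEC23A, SEC24A and SEC13 held it. Capitals mark the motif, and the SEC13 stretch shows its reverse complement. The stretches are chr14:39103206-39103299 (minus strand), chr5:134648546-134648642 (plus strand, within the span of SAR1B) and chr3:10321219-10321315 (minus strand):
SEC23A: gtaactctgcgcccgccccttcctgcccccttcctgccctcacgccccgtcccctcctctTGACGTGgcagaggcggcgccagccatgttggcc
SEC24A: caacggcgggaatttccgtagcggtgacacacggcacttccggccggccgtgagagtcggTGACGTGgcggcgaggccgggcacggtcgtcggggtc
SEC13: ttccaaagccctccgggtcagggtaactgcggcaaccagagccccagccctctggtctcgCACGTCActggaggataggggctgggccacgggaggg

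The motif began 4 bases before the RefSeq start of SEC23A at base 39103235 of chromosome 14, which lies inside the longer GENCODE span given above. It began 179 bases before the start of SEC24A, and 143 or 214 bases before the RefSeq starts of SEC13. It was present in 1.97% of all 35116 windows and in 3.39% of the 10594 tested genes that had one. The median log2 fold change was -0.04 with it and 0.02 without it. Its 3 carriers in the coat ranged from SEC23A at -2.72 through SEC24A at -0.27 to SEC13 at -0.02. The part of the motif in these values was not tested. SEC24D, the coat gene with the next largest fall, could not be examined.

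The CREB3 family itself was measured beside these windows. CREB3L2, an ER-anchored transcription factor released by proteolysis, fell from 219 to 152 CPM, a log2 fold change of -0.53 (edgeR adjusted p = 2.28e-05). CREB3L4, its relative expressed in prostate, had a log2 fold change of -0.23 (edgeR adjusted p = 0.0248) that passed in 15 of 22 alternatives. CREB3 had 0.18 (edgeR adjusted p = 0.0361) and passed in 10 of 22. CREB3L1 and CREB3L3 did not pass the expression filter. Their part in the coat genes' values was not tested.

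Beyond the coat, 76 tested genes of ER to Golgi transport were described in 5 lists. Together 33 were lower, 18 higher and 25 did not pass, with a median log2 fold change of -0.10, against 30.1% lower, 32.1% higher and a median of 0.03 over all tested genes. The lists differed in their counts, and these differences were not tested.

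Among 16 factors of ER exit sites and COPII assembly, 8 were lower (50%, against 30.1% of all tested genes), 4 were higher (25%, against 32.1%) and 4 did not pass, with a median of -0.19. SEC16A, the scaffold that organizes the sites where COPII assembles, fell from 227 to 125 CPM, a log2 fold change of -0.86 (edgeR adjusted p = 1.59e-08). PREB, the exchange factor that loads SAR1 with GTP, fell by 0.43 (edgeR adjusted p = 1.66e-06), and so did TFG, which links exit sites to the ER-Golgi intermediate compartment (edgeR adjusted p = 2.62e-07). KLHL12, the adaptor for ubiquitylation of SEC31A, rose by 0.55 (edgeR adjusted p = 3.06e-08). PDCD6, a calcium-binding partner of SEC31A, rose by 0.29 (edgeR adjusted p = 0.000843). MIA2, a partner of the collagen export machinery, rose by 0.87 (edgeR adjusted p = 0.000308) at a low level of 3.45 to 6.12 CPM on average.

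Of 20 cargo receptors and p24 proteins, 13 were lower (65%, against 30.1% of all tested genes), 2 were higher (10%, against 32.1%) and 5 did not pass, with a median of -0.35. Of the 8 p24 genes (TMED), which escort cargo in COPII and COPI vesicles, 7 were lower, and the eighth, TMED1, had a log2 fold change of 0.09 (edgeR adjusted p = 0.119). TMED7 fell from 355 to 180 CPM, a log2 fold change of -0.98 (edgeR adjusted p = 5.36e-11), and TMED5 fell by 0.71 (edgeR adjusted p = 3.82e-10). KDELR2, a receptor that returns ER residents from the Golgi, fell by 0.62 (edgeR adjusted p = 7.25e-09). ERGIC3, a cargo receptor, rose by 0.33 (edgeR adjusted p = 1.77e-05). KDELR1, the paralogue of KDELR2, had a log2 fold change of 0.12 (edgeR adjusted p = 0.0452) that passed in only 6 of 22 alternatives, where it ran from 0.04 to 0.19.

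The COPI coat, which carries vesicles back from the Golgi, had 1 of 8 tested genes lower (12.5%, against 30.1% of all tested genes) and 2 higher (25%, against 32.1%), and its median was -0.02. COPZ1 fell from 303 to 180 CPM (log2 fold change -0.75, edgeR adjusted p = 1.85e-10). COPG2 rose from 32.7 to 53.3 CPM (log2 fold change 0.71, edgeR adjusted p = 1.84e-06), and COPB2 had a log2 fold change of 0.16 (edgeR adjusted p = 0.0429) that passed in 9 of 22 alternatives.

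Among 19 SNAREs and tethers between ER and Golgi, 8 were lower (42.1%, against 30.1% of all tested genes), 5 were higher (26.3%, against 32.1%) and 6 did not pass, with a median of -0.04. BNIP1, an ER SNARE, fell from 21.9 to 7.66 CPM (log2 fold change -1.51, edgeR adjusted p = 1.01e-10). STX5, the syntaxin on which ER-derived vesicles fuse, fell by 0.49 (edgeR adjusted p = 8.84e-07), and its regulator SCFD1 by 0.40 (edgeR adjusted p = 5.8e-06). USE1, NSF and SEC22A rose by 0.31, 0.27 and 0.24 (edgeR adjusted p = 0.000677, 0.0024 and 0.00224). The rise of NSF passed in 20 of 22 alternatives, and SEC22B had no matching identifier.

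Of 13 subunits of the TRAPP complex, which tethers COPII vesicles, 3 were lower (23.1%, against 30.1% of all tested genes), 5 were higher (38.5%, against 32.1%) and 5 did not pass, with a median of 0.06. TRAPPC1, TRAPPC10 and TRAPPC13 fell by 0.57, 0.38 and 0.30 (edgeR adjusted p = 3.46e-08, 0.000278 and 0.018), the last in 19 of 22 alternatives. TRAPPC6A, TRAPPC2 and TRAPPC5 rose by 0.94, 0.55 and 0.54 (edgeR adjusted p = 4.61e-07, 1.28e-05 and 4.13e-06). TRAPPC6A was measured at only 7.25 CPM in siNT and 13.8 CPM in siCHKA.

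**Figure D3:**
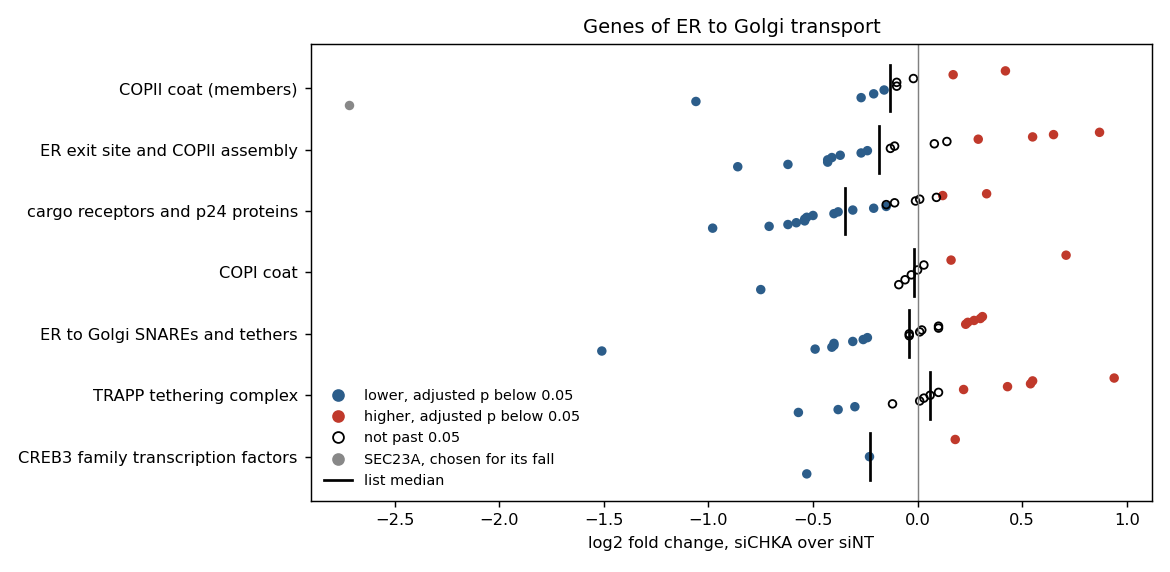
Log2 fold change, siCHKA over siNT, of each tested gene of the COPII coat, of 5 lists of ER to Golgi transport and of the CREB3 family, with the list median as a vertical bar and open circles for genes that did not pass. The cargo receptor list has the lowest median of the 5 lists, at -0.35, and SEC23A and BNIP1 have the lowest values shown.

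The promoter motif of SEC23A was also counted in these lists. Of 64 list genes with a window, 11 held TGACGTG, which is 17.2%, against 3.39% of the tested genes with a window. These were SEC16A, MIA3, PEF1, KDELR3, COPA, COPB1, COPB2, COPE, STX5, SCFD1 and GORASP1. Of them 6 were lower and 1, COPB2, was higher, with log2 fold changes from -0.86 for SEC16A to 0.16 for COPB2. None of the 11 changed by the amount seen for SEC23A. Of all 76 list genes, 33 were lower and 18 higher, beside 30.1% lower and 32.1% higher over all tested genes. The motif was picked after sequences had been looked at, and the lists were chosen with earlier results of these data known. The shares are therefore descriptions and were not tested.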

How the data were processed

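RNA from 6 siCHKA and 6 siNT samples was sequenced as single 40-base reads. Per the submitters' processing notes and the study's methods, the authors aligned reads to GRCh37 with TopHat2 2.0.4 and deposited whole-number read counts per Ensembl gene from HTSeq 0.5.3p9, and used DESeq 1.10.1. Use of strand is not given in the sources used here, and HTSeq leaves out reads on overlapping genes (4.2% to 4.46% of reads on genes or ambiguous). The 4 count files of each sample were summed, without the 5 rows that name no gene. Symbols, coordinates and lengths came from GENCODE 44 (GRCh38), which named 82.8% of identifiers.

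The counts were tested with edgeR 4.0.16 in R 4.3.3 (TMM, filterByExpr, quasi-likelihood test, Benjamini-Hochberg over 14501 genes). CPM are TMM-normalized. Alternatives, 22 in all for the coat genes, included DESeq2 1.42.0, RLE scaling, other filters, 1 count file per sample, a replicate block, single sets of libraries and each sample left out. In simulated counts for this comparison, edgeR recovered 186 of 200 genes changed 2-fold among 14363, with 7 false calls. The simulated samples held no sets and only those 200 genes changed, whereas 62.2% of tested genes were called here. These rates need not hold for the data themselves or for smaller changes. Paralogue ratios used exact permutation tests (scipy 1.17.1).

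Members, lists and the siCHKA sets were chosen with earlier results of these data known. In each list, up to 3 called genes of smallest p per direction were named, with all CREB3 genes, the nearest 2 tested coding genes on each side of SEC23A by start, the 5 most correlated with it and 3 on either side in fold order. Genes named only in the motif count, TMED1 and the markers KRT5, TP63, PTPRC, COL1A2, CHGA, PECAM1 and KLK3 stand outside that rule. So do SEC31B, SEC23A-AS1, THAP9 and THAP9-AS1. Same-numbered samples of the groups had correlations of their deviations from -0.40 to 0.32, with 2 of 6 over 0.1, so the numbers were not taken as pairs. One marker of the luminal list is not reported here.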

Additional observations from a re-analysis of the deposited data

Results flagged for a closer look

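In 28 groups of 6 samples (the CPM of 10 coat genes and 4 paralogue ratios in each treatment), 2 samples stood apart from the rest of their group, where chance gives about 1.4. SEC23A was at 45.6 CPM in siCHKA replicate 1 and at 40.1 to 41.9 CPM in the other siCHKA samples, a gap of 0.669 of the group's range. SEC13 was at 103 CPM in siNT replicate 3 and at 92.3 to 95.5 CPM in the other siNT samples, a gap of 0.695 of the range. Without these samples the log2 fold change was -2.75 for SEC23A and -0.00 for SEC13.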

How the results depend on the processing

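SEC24D and SAR1B kept their direction and call in all 22 alternatives (-1.21 to -0.91 and 0.31 to 0.53), and SEC23A kept its value (-2.77 to -2.68). The sets of siNT libraries were chosen after seeing the data. With siCHKA replicates 1, 3 and 5 alone, the log2 fold changes of SEC23B (-0.13), SEC24A (-0.10) and SEC24B (-0.10) lost their calls, SEC13 was at 0.01, the log2 ratio of SEC24A to SEC24B differed by 0.00 and 2 coat genes were lower. With siCHKA replicates 2, 4 and 6 alone, SEC24C (0.08) lost its call, SEC31A (-0.17) gained one and 1 coat gene was higher. With siNT replicates 1, 2 and 3 alone, SEC24A (-0.14), SEC24B (-0.13) and SEC24C (0.16) lost their calls, SAR1A (-0.15) gained one and 1 coat gene was higher. With siNT replicates 4, 5 and 6 alone, SEC24C (0.16) lost its call and 1 coat gene was higher. With 1 count file per sample, SEC23B (-0.10) and SEC24B (-0.14) lost their calls, SEC13 was at 0.00 and 3 coat genes were lower. Without an expression filter SEC24C (0.14) lost its call and 1 coat gene was higher, and with at least 10 counts in every sample SEC13 was at 0.01. With DESeq2, SEC31A (-0.11, adjusted p = 0.036) and SAR1A (-0.11, adjusted p = 0.0463) gained calls. The cause was not tested.

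With each sample left out in turn, the log2 fold changes were -2.75 to -2.71 for SEC23A, -0.03 to 0.00 for SEC13, -0.12 to -0.08 for SEC31A (past the threshold without siCHKA replicate 1) and -0.12 to -0.08 for SAR1A (past it without siNT replicate 6). The other 6 coat genes kept their calls, 5 to 6 coat genes were lower and 2 higher, and over all tested genes 4221 to 4402 were lower and 4435 to 4596 higher. Counts within single lists moved where they were small, with 1 to 3 cargo receptor genes, 1 to 2 COPI genes and 2 to 7 SNARE and tether genes higher, and 1 to 3 COPI genes lower, over all 22 alternatives. The 3 tested paralogue ratios kept their sides of the threshold with each sample left out. With any single set of libraries, the ratios of SEC24C to SEC24D and of SAR1A to SAR1B had an adjusted p of 0.0357 (exact permutation test). The smallest raw p that 3 against 6 samples can give is 0.0238. With the replicate number as a block, both had an adjusted p of 0.0469 (sign-flip test).

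Requiring at least a 2-fold change left 654 genes lower and 785 higher over all tested genes, 2 coat genes lower and 0 higher, and 1 list gene lower and 0 higher, against 5, 2, 33 and 18 by edgeR's adjusted p alone. Per kilobase of the longest coding transcript, siNT levels were 65.2 for SEC23A, 65.1 for SEC23B, 21.1 for SEC24A, 41 for SEC24C, 25 for SEC24D, 59.5 for SEC13, 38.1 for SEC31A, 27.4 for SAR1A and 42.8 for SAR1B. With CPM by total counts they were 30 for SEC23A, 49.2 for SEC23B, 33.9 for SEC24C, 16.8 for SEC13, 16.7 for SEC31A and 24.4 for SAR1B. With the replicate number as a block, 4273 genes were lower and 4494 higher over all tested genes, and the block changed no call of a coat gene. 1 of the 6 siCHKA samples correlated best with the siNT sample of its own number. Depth limits little here, since every coat gene had at least 519 reads in every sample.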
